A study of Mus musculus with 16 samples.

Results

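Expression was examined for 31 genes that carry pyruvate into the mitochondrion, oxidise it, run the tricarboxylic acid (TCA) cycle and feed carbon into it by side reactions, a process called anaplerosis. The genes were listed by name according to their step in the pathway, and all 31 were found among the 24091 genes of the deposited expression table. The cells were caecal intestinal epithelial cells, the single sheet of cells that lines the large pouch at the start of the colon, taken from C57BL/6 mice. Bulk RNA was sequenced in 9 libraries, 3 in each of 3 groups, and 7 chromatin samples of the same series were not analysed here.

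All 3 groups drank Splenda, a sucralose sweetener, at 10 g/L for 7 days. The vehicle group received no antibiotic and a mock gavage of 25% glycerol. The ampicillin group received ampicillin at 1 g/L over the same 7 days and the same mock gavage. The tributyrin group received ampicillin at 1 g/L and a gavage of tributyrin, a glycerol ester that releases the bacterial fermentation product butyrate, in place of the mock gavage. Gavage was on day 7 and tissue was taken 6 hours later. The strain is given without a substrain, and neither the age of the mice, the tributyrin dose nor whether each library came from its own animal is stated in the sources used here, so p-values measure only the spread between these libraries, which may be technical. Because no group received tributyrin without ampicillin, the effect of tributyrin was measured only under the antibiotic. No glycerol content is given for the tributyrin gavage, so tributyrin and any difference in the glycerol given cannot be told apart.

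Pyruvate made in the cytosol enters mitochondria through a carrier and is converted to acetyl-CoA by the pyruvate dehydrogenase complex, which kinases switch off and phosphatases switch on. Acetyl-CoA also arrives from fatty acids, and in the colon butyrate from bacteria is known as a main fuel of the absorptive epithelial cells. The cycle oxidises acetyl-CoA to carbon dioxide and passes electrons to the respiratory chain, while carboxylases, transaminases and malic enzyme add carbon to the cycle or take it out.

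Expression was given as TPM, each transcript's share of a fixed total after division by its length. Genes of one library can therefore be set side by side, but the values are relative and keep no read depth. Each library summed to 999833 to 999866 TPM over the table. Summed markers of epithelium (7 genes) were 12687 to 14117 TPM in the vehicle, 10422 to 10834 in the ampicillin and 11514 to 12445 in the tributyrin libraries, so the labelled cell type carried its markers in every library, and 6 of the 7 were called lower in ampicillin against vehicle. Markers of non-epithelial cells were low: summed erythroid genes (3 genes) were 8.30 to 25.3, 13.4 to 36.6 and 94.3 to 134 TPM, T and intraepithelial lymphocyte genes (5 genes) 11.5 to 12.9, 7.46 to 13.9 and 17.1 to 32.0, and endothelial genes (4 genes) 3.81 to 4.37, 0.850 to 0.927 and 1.67 to 2.13. The endothelial sum was mostly Pecam1, with means of 3.79, 0.586 and 1.38 TPM in the vehicle, ampicillin and tributyrin groups. Vwf was at 0.320, 0.292 and 0.482, and Kdr and Cdh5 were at or below 0.0376 in every library. Summed fibroblast markers (5 genes) were at or below 0.417 TPM and summed smooth muscle markers (4 genes) at or below 0.170 in every library, and no listed marker was at 0 in all 9. Summed Paneth markers (5 genes) were highest in vehicle replicates 2 and 3, at 62.6 and 24.1 TPM, against 1.95 to 6.18 in the other 7 libraries. These marker levels moved with the groups, and their part in the results below was not tested.

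Changes were tested with limma on log2(TPM + 1) for the 12155 genes with a mean of at least 1 TPM, with Benjamini-Hochberg adjustment over all of them, and a gene counts as called where its adjusted p is under 0.05. All 31 members passed the filter on low values. Each call was recomputed in 21 other settings, 12 with another choice of processing or model and 9 with 1 library left out. Each difference below is a log2 difference on this scale, followed by its standard error, and is compressed for genes near or below 1 TPM. In bulk RNA, fewer cells of a type and less RNA per cell cannot be told apart. The comparison of ampicillin with vehicle and that of tributyrin with mock gavage share the 3 ampicillin libraries, and the comparison of the tributyrin group with the vehicle group shares libraries with both, so opposite signs in the first and the second are not independent of each other.

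With ampicillin, 9 of the 31 members were called higher and 2 lower against vehicle. Over all genes tested, 11.0% were called higher and 10.2% lower. The members' share of higher calls was 29.0% and their share of lower calls 6.45%. The members were chosen with earlier results of these data known, and the genes tested were not matched to them in level. The shares here are therefore set side by side as description only. With tributyrin after ampicillin, 4 members were called higher and 3 lower against mock gavage, where 15.6% and 7.54% of all genes were called, a total of 22.6% of members beside 23.2% of all genes. The tributyrin group against the vehicle group gave 7 members higher and 2 lower, beside 19.1% and 9.21% of all genes. Libraries of 1 group all lay above or below those of the other for 12 members higher and 4 lower with ampicillin (22.6% and 18.2% of all genes), for 6 higher and 7 lower with tributyrin (27.3% and 15.3%) and for 8 higher and 2 lower between the tributyrin and vehicle groups (28.5% and 13.2%). The median difference of the members was 0.053, -0.044 and 0.023 in the 3 comparisons, beside 0.024, 0.049 and 0.078 over all genes tested.

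These splits depended on how libraries were scaled. With trimmed mean scaling the members called were 5 higher and 2 lower with ampicillin, 3 higher and 5 lower with tributyrin, and 4 higher and 6 lower between the tributyrin and vehicle groups. The same scaling turned the calls over all genes from 1902 higher and 917 lower to 1480 and 1542 with tributyrin, and from 2325 and 1119 to 1537 and 1786 between the tributyrin and vehicle groups. With ampicillin they went from 1343 higher and 1244 lower to 1268 and 1424. No member called in either scaling changed the sign of its difference. The number of members called also fell when 1 library was left out: to 6 without vehicle replicate 1, to 7 without vehicle replicate 2 or 3 or ampicillin replicate 1 or 2, and to 5 without ampicillin replicate 3 in the ampicillin comparison, and to 3, 2 and 3 without ampicillin replicates 1, 2 and 3 and to 4 and 2 without tributyrin replicates 1 and 2 in the tributyrin comparison.

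Of the 31 members, 15 were called in at least 1 comparison and 16 in none. The step levels were high for most of the cycle: the succinyl-CoA ligase genes summed to 1736 to 2075 TPM over the 9 libraries and the succinate dehydrogenase genes to 1706 to 2122 TPM. Summed over all 31 genes, the level was 7983 to 8292 TPM in the vehicle, 8378 to 8675 in the ampicillin and 8197 to 8456 in the tributyrin libraries, so the ampicillin libraries lay above the vehicle libraries and the tributyrin libraries overlapped both. The highest member by mean was Suclg2 and the lowest was Pdp1.

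**Figure D1:**
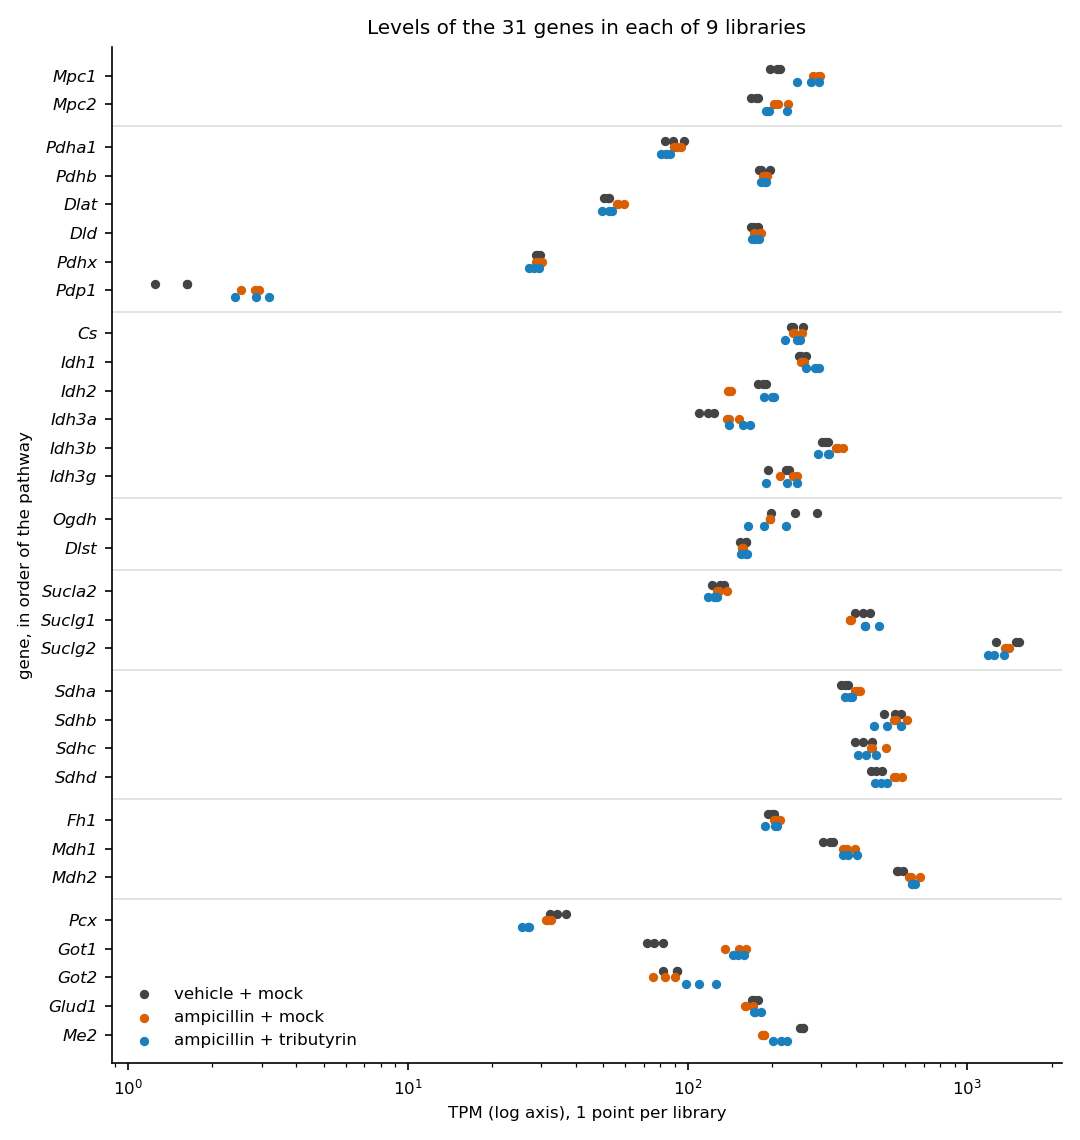
Level of each of the 31 members in TPM on a log axis, in the order of the pathway, with 1 point per library and 1 colour each for the vehicle, ampicillin and tributyrin groups. The members run from Pdp1, at 1.25 to 3.18 TPM, to Suclg2, at 1187 to 1528 TPM, and the 3 groups of most members lie close together on this scale.

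**Figure D2:**
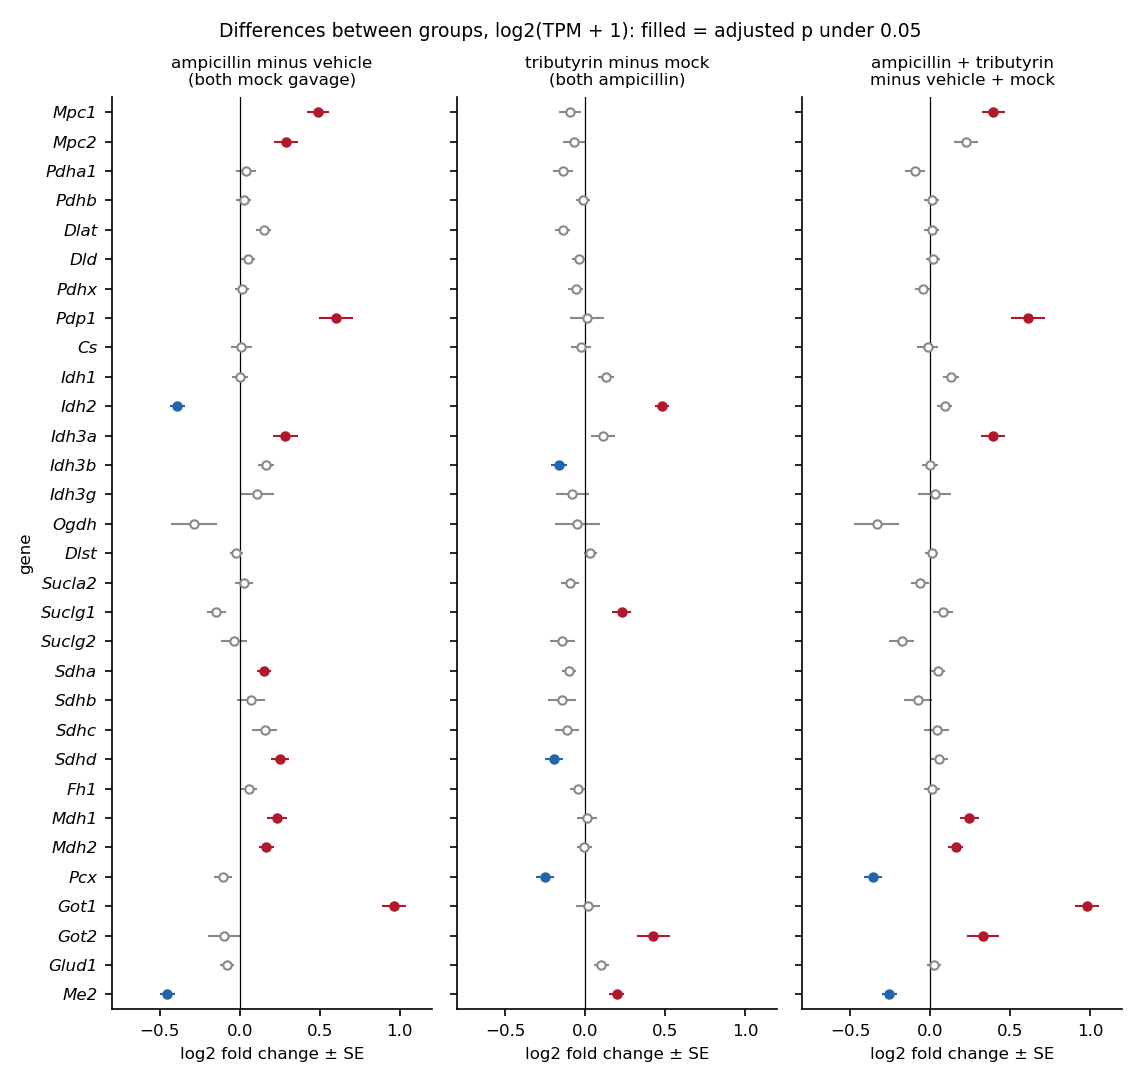
Log2 difference of each member with its standard error in the 3 comparisons, with filled points for members called at an adjusted p under 0.05. Got1 stands at 0.97 with ampicillin and 0.017 with tributyrin, and Idh2 and Me2 lie below 0 with ampicillin and above 0 with tributyrin.

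Both subunits of the mitochondrial pyruvate carrier, Mpc1 and Mpc2, rose with ampicillin. Mpc1 (chr17:8283787-8297667, mm10) was at 213, 209 and 197 TPM in the vehicle, 281, 292 and 297 in the ampicillin and 275, 296 and 246 in the tributyrin libraries. Every vehicle library was below every library of the other groups, which overlapped each other. Its difference was 0.49 ± 0.069 with ampicillin (adjusted p = 0.00161), or 40.5% more TPM, and 0.40 ± 0.069 between the tributyrin and vehicle groups (adjusted p = 0.00448), and both calls held in all 21 other settings. With tributyrin against mock gavage Mpc1 was at -0.093 ± 0.069 and was not called.

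Mpc2, the partner subunit, was at 176, 169 and 179 TPM in the vehicle, 203, 210.4 and 228 in the ampicillin and 195, 191 and 227 in the tributyrin libraries. The ordering of the groups was that of Mpc1, with a smaller difference of 0.29 ± 0.074 with ampicillin (adjusted p = 0.0244). That call was lost without vehicle replicate 1, 2 or 3 or ampicillin replicate 2 or 3, and with equal medians or trimmed mean scaling, and its adjusted p spanned 0.0079 to 0.0857 over the 21 settings. Between the tributyrin and vehicle groups Mpc2 was at 0.22 ± 0.074 (adjusted p = 0.0524), with no overlap of libraries.

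The subunits of the pyruvate dehydrogenase complex itself differed little. The complex consists of the decarboxylase E1 (Pdha1 and Pdhb), the acetyl transferase E2 (Dlat), the dehydrogenase E3 (Dld), which it shares with oxoglutarate dehydrogenase, and a protein that binds E3 to the core (Pdhx). None of these 5 genes was called in any comparison. Their group means were 83.6 to 92.0 TPM for Pdha1, 187 to 189 for Pdhb, 51.5 to 57.2 for Dlat, 173 to 179 for Dld and 28.2 to 29.5 for Pdhx. Scaling brought Pdha1, Pdhx and Dlat to a call. Pdha1 was called lower with tributyrin under equal medians (adjusted p = 0.0329) and trimmed mean scaling (0.0336), over a range to 0.312. Against vehicle, trimmed mean scaling called Pdha1 (0.0438, range to 0.67) and Pdhx (0.0457, range to 0.807) lower in the tributyrin group. Dlat came nearest to a call, at 52.0, 50.1 and 52.3 TPM in the vehicle, 59.4, 56.4 and 55.9 in the ampicillin and 52.5, 53.5 and 49.6 in the tributyrin libraries. Its ampicillin libraries lay above all others. The difference was 0.15 ± 0.047 with ampicillin (adjusted p = 0.0538) and -0.14 ± 0.047 with tributyrin (adjusted p = 0.0619). It was called with ampicillin in 3 of the 21 settings, among them the fit without tributyrin replicate 3 (adjusted p = 0.039), over a range of 0.0323 to 0.167, and with tributyrin in 3 scaling settings.

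Pdp1, the catalytic subunit of a phosphatase that reactivates the complex, rose with ampicillin from a very low level. It was at 1.62, 1.62 and 1.25 TPM in the vehicle, 2.53, 2.95 and 2.85 in the ampicillin and 3.18, 2.41 and 2.86 in the tributyrin libraries. Vehicle libraries were the 3 lowest, and the other groups overlapped. The difference was 0.60 ± 0.11 with ampicillin (adjusted p = 0.00516), or 85.5% more TPM, and 0.61 ± 0.11 between the tributyrin and vehicle groups (adjusted p = 0.00453). Both calls held in all 20 other settings in which Pdp1 was tested, but the size moved with the pseudocount, from 0.26 to 0.86 with ampicillin, as the gene lies near 1 TPM. At 0.012 ± 0.11 with tributyrin against mock gavage, Pdp1 was not called.

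The kinases that act against this phosphatase are not members, and their values are given as neighbours of the pathway. Pdk3 and Pdk4 fell under the rule for named genes, while Pdk1 and Pdk2 were singled out after their values were seen. Pdk1 was at 18.7, 19.7 and 19.0 TPM in the vehicle, 23.8, 25.6 and 27.6 in the ampicillin and 18.9, 18.3 and 18.2 in the tributyrin libraries. It rose by 0.40 ± 0.058 with ampicillin (adjusted p = 0.00178) and was lower by a difference of -0.45 ± 0.058 with tributyrin (adjusted p = 0.00159). Pdk2 moved in the same directions, at 0.23 ± 0.054 (adjusted p = 0.0171) and -0.31 ± 0.054 (adjusted p = 0.00531), and its first call was lost without ampicillin replicate 1 or 2 (adjusted p = 0.0552 and 0.0703, over a range from 0.00492). Both kinases thus had their highest 3 libraries in the ampicillin group.

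Pdk3 had the opposite order. It was at 27.1, 30.5 and 28.0 TPM in the vehicle, 19.3, 20.1 and 19.7 in the ampicillin and 28.0, 30.7 and 28.9 in the tributyrin libraries, a difference of -0.51 ± 0.057 with ampicillin (adjusted p = 0.000497) and 0.54 ± 0.057 with tributyrin (adjusted p = 0.000732). Pdk4, a kinase gene known to be induced when fatty acids are used as fuel, was at 2.87, 5.99 and 3.28 TPM in the vehicle, 3.03, 3.83 and 3.71 in the ampicillin and 7.30, 8.42 and 6.89 in the tributyrin libraries. All 3 tributyrin libraries lay above the others, and vehicle replicate 2 stood apart within its group. Pdk4 rose by 0.92 ± 0.20 with tributyrin (adjusted p = 0.014) and by 0.81 ± 0.20 between the tributyrin and vehicle groups (adjusted p = 0.02), differences that were 0.56 and 0.49 with a pseudocount of 5. The tributyrin call was lost without ampicillin replicate 1 or tributyrin replicate 2 (adjusted p = 0.0518 and 0.0554, over a range from 0.00173), and the other in a fit on only the 2 groups compared (0.0514) and without vehicle replicate 1 or 3 or tributyrin replicate 2 (0.0597, 0.0661 and 0.0709), over a range from 0.00128.

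**Figure D3:**
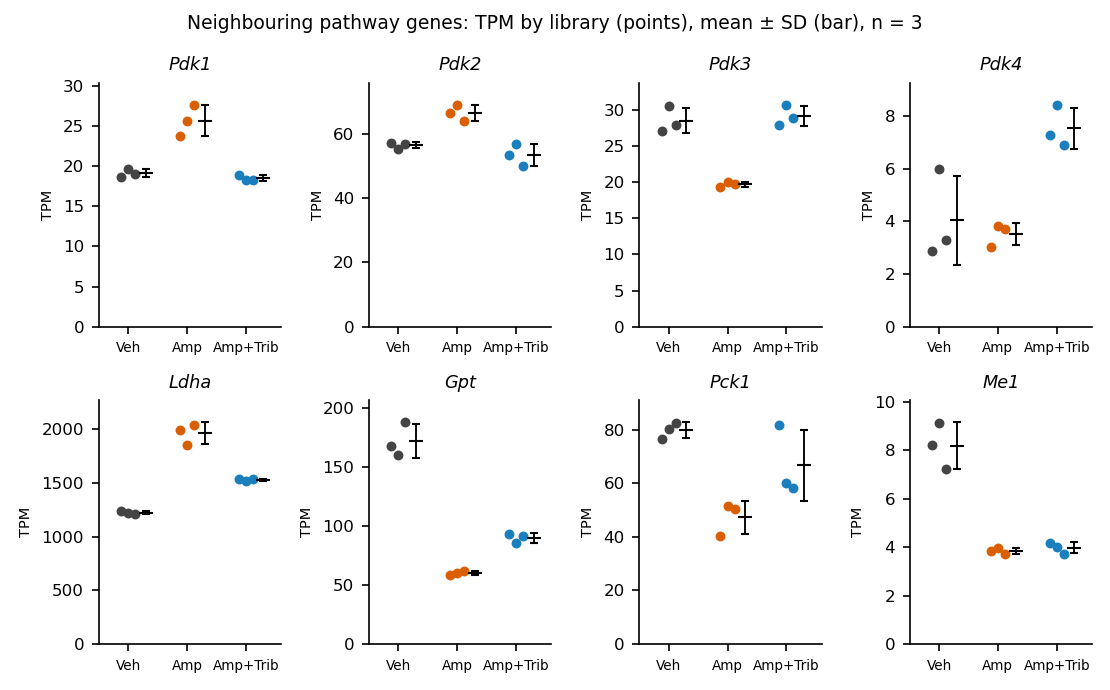
TPM of 8 neighbouring genes by library, as points, with the group mean and SD (n = 3): the 4 pyruvate dehydrogenase kinases, Ldha, Gpt, Pck1 and Me1. Pdk1, Pdk2 and Ldha are highest in the ampicillin group, Pdk3, Gpt and Pck1 are lowest there, Pdk4 is highest in the tributyrin group, and Me1 is at 3.72 to 4.18 TPM in both ampicillin-treated groups.

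Citrate synthase (Cs), which joins acetyl-CoA to oxaloacetate, did not pass the test in any comparison: its groups were at 244 ± 13.4, 245 ± 10.7 and 241 ± 15.2 TPM (mean ± SD, n = 3) for vehicle, ampicillin and tributyrin. Slc25a1, the carrier that exports citrate from mitochondria, was lower in the tributyrin group than in the vehicle group by a difference of -0.29 ± 0.048 (adjusted p = 0.00388). Its groups were at 181 ± 9.10, 159 ± 3.62 and 148 ± 3.87 TPM in the same order. Slc25a1 was already called lower with ampicillin, a call lost in 7 of 21 settings, over a range of 0.0182 to 0.103. With tributyrin against mock gavage it was not called.

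The isocitrate dehydrogenases gave the clearest contrast within the cycle. Idh2, the mitochondrial enzyme that makes NADPH, was at 190.5, 179 and 186 TPM in the vehicle, 143, 141 and 139 in the ampicillin and 188, 204 and 200.1 in the tributyrin libraries. The 3 ampicillin libraries were the lowest, with no overlap, while vehicle and tributyrin libraries overlapped. Idh2 fell by 0.39 with ampicillin (SE 0.046, adjusted p = 0.000635), or 23.9% of TPM, and rose by 0.48 ± 0.046 with tributyrin (adjusted p = 0.000542), or 40.0%. Both calls held in all 21 other settings. Between the tributyrin and vehicle groups the difference was 0.091 ± 0.046 (adjusted p = 0.169). Its cytosolic counterpart Idh1 was at 257 ± 8.22, 257 ± 4.01 and 282 ± 15.5 TPM and was not called. The difference of Idh1 with tributyrin was 0.13 ± 0.05 (adjusted p = 0.0936), called without tributyrin replicate 3 (0.0319) and with array weights, over a range of 0.0242 to 0.298. Between the tributyrin and vehicle groups the adjusted p of Idh1 was 0.0826, and 3 of 21 settings called it, among them the fit without the same library (0.0266), over a range of 0.0213 to 0.462.

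Idh2 is encoded at chr7:80094845-80118608 on the minus strand (mm10). It is shown here because it is the member whose calls with ampicillin and with tributyrin went in opposite directions in every setting. The 250 bases before a RefSeq start that lies within the gene's outer bounds (chr7:80115351-80115600, minus strand, GRCm38.p6), written 5′ to 3′ with any of the motifs described below in capitals, hold none of them.
Idh2: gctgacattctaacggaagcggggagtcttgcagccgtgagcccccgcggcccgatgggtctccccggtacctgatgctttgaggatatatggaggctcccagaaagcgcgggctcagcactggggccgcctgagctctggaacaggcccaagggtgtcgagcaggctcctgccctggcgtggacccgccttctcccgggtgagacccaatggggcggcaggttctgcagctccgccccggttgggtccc

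The 3 subunits of the NAD-linked mitochondrial enzyme did not move together. Idh3a, the catalytic subunit, was at 118, 125 and 109.8 TPM in the vehicle, 152, 140.1 and 138 in the ampicillin and 157, 167 and 141 in the tributyrin libraries. All vehicle libraries were lowest, and the other groups overlapped. Idh3a rose by 0.28 ± 0.076 with ampicillin (adjusted p = 0.0296) and by 0.40 ± 0.076 between the tributyrin and vehicle groups (adjusted p = 0.00675). The second call held in all 21 other settings, and the first was lost without vehicle replicate 1 or 3 or any of the 3 ampicillin libraries, over a range of 0.00726 to 0.0998.

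Idh3b, a regulatory subunit, was at 318, 310.1 and 302 TPM in the vehicle, 359, 344 and 339 in the ampicillin and 320.3, 319 and 292 in the tributyrin libraries. Here the ampicillin libraries were highest without overlap. The difference of 0.16 ± 0.051 with ampicillin missed the threshold (adjusted p = 0.0506) and that of -0.16 ± 0.051 with tributyrin passed it narrowly (adjusted p = 0.0485). The ampicillin difference was called in 5 of 21 settings, 4 of processing or model and the fit without tributyrin replicate 3 (0.0266), over a range of 0.0142 to 0.154. The tributyrin call was lost in 14 of 21, in 5 settings of processing or model and without any 1 of the 9 libraries, over a range of 0.0142 to 0.149. Idh3g, the other regulatory subunit, was at 217 ± 19.6, 233 ± 17.3 and 221 ± 27.6 TPM with overlapping libraries and was not called.

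Oxoglutarate dehydrogenase, which makes succinyl-CoA, was represented by its E1 subunit Ogdh and its E2 subunit Dlst, and neither was called. Ogdh was at 199, 289.8 and 243 TPM in the vehicle, 198, 197 and 197 in the ampicillin and 224, 188 and 165 in the tributyrin libraries. The vehicle libraries spread over 199 to 289.8 TPM, while those of the ampicillin group lay at 197 to 198 TPM. Its difference was -0.33 ± 0.14 between the tributyrin and vehicle groups (adjusted p = 0.113), and it was called lower in 3 of the 21 settings: with equal medians (0.0478), with trimmed mean scaling (0.0454) and without vehicle replicate 1 (0.038), over a range to 0.291. Dlst was at 159 ± 4.82, 157 ± 1.01 and 160.4 ± 4.13 TPM.

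Succinyl-CoA ligase pairs a shared alpha subunit (Suclg1) with a GTP-forming (Suclg2) or an ATP-forming (Sucla2) beta subunit. Suclg1 was at 424, 397 and 448 TPM in the vehicle, 381, 379.8 and 383 in the ampicillin and 429.8, 431 and 482 in the tributyrin libraries. The ampicillin libraries were the 3 lowest. Suclg1 rose by 0.23 ± 0.061 with tributyrin (adjusted p = 0.0287), a call lost without ampicillin replicate 1, 2 or 3 or tributyrin replicate 2 or 3 and with equal medians or trimmed mean scaling, over a range of 0.015 to 0.151. With ampicillin its difference was -0.15 ± 0.061 (adjusted p = 0.126), called only with array weights (0.0242, over a range to 0.332).

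The beta subunits were not called. Suclg2 was at 1265, 1528 and 1497 TPM in the vehicle, 1387, 1364 and 1414 in the ampicillin and 1349.6, 1187 and 1245 in the tributyrin libraries, and Sucla2 was at 129 ± 6.41, 132 ± 6.13 and 123 ± 4.82 TPM. The GTP-forming subunit was thus the more abundant transcript per length in each library, by 9.74 to 11.4 times. Suclg2 was at -0.18 ± 0.079 between the tributyrin and vehicle groups (adjusted p = 0.126), and 3 settings called it lower: equal medians (0.0452), trimmed mean scaling (0.0406) and the fit without vehicle replicate 1 (0.0256), over a range to 0.317.

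Of the 4 subunits of succinate dehydrogenase, which is also complex II of the respiratory chain, 2 rose with ampicillin. Sdhd, a membrane anchor, was at 471, 452 and 495 TPM in the vehicle, 546, 556 and 586 in the ampicillin and 491, 468 and 516 in the tributyrin libraries. The ampicillin libraries were highest and the other groups overlapped. Sdhd rose by 0.25 ± 0.055 with ampicillin (adjusted p = 0.013) and was lower with tributyrin by a difference of -0.19 ± 0.055 (adjusted p = 0.0361). The first call was lost without ampicillin replicate 3 (0.0512, over a range from 0.0043). The second was lost without vehicle replicate 1, any of the 3 ampicillin libraries or tributyrin replicate 1 or 2, over a range of 0.0105 to 0.122.

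Sdha, the subunit that binds the flavin and oxidises succinate, was at 354, 365 and 376 TPM in the vehicle, 405, 398 and 415 in the ampicillin and 381, 366 and 387 in the tributyrin libraries. It rose by 0.15 ± 0.043 with ampicillin (adjusted p = 0.0369), but 12 of the 21 settings lost the call, including the fits without any 1 of the vehicle or ampicillin libraries and without tributyrin replicate 1, over a range of 0.0197 to 0.126. The iron-sulfur subunit Sdhb, at 546 ± 39.1, 572 ± 33.0 and 519 ± 56.2 TPM, and the other anchor Sdhc, at 425 ± 28.7, 473 ± 33.5 and 438 ± 33.2 TPM, had overlapping libraries and were not called. Among the genes for assembly of this enzyme, Sdhaf2 rose by 0.20 ± 0.049 with tributyrin (adjusted p = 0.0223) and by 0.27 ± 0.049 between the tributyrin and vehicle groups (adjusted p = 0.00508). The tributyrin call of Sdhaf2 was lost without any of the 3 ampicillin libraries or without tributyrin replicate 1 or 2, over a range of 0.00785 to 0.0712.

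Fumarase (Fh1) was at 199 ± 4.54, 207 ± 5.37 and 201 ± 10.3 TPM and was not called, while both malate dehydrogenases rose with ampicillin. Mdh1, the cytosolic enzyme of the malate-aspartate shuttle, was at 324, 305 and 330.3 TPM in the vehicle, 371, 359.9 and 398 in the ampicillin and 375, 359 and 405 in the tributyrin libraries. Mdh2, the cycle enzyme, was at 588, 562 and 565 TPM, then 678, 619 and 627, then 634, 649 and 635. For both genes the vehicle libraries were the 3 lowest and the other groups overlapped.

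Mdh1 rose by 0.23 ± 0.061 with ampicillin (adjusted p = 0.028) and by 0.25 ± 0.061 between the tributyrin and vehicle groups (adjusted p = 0.0194). The first call was lost without vehicle replicate 1 or 2 or ampicillin replicate 1 or 3, and the second without vehicle replicate 2, and both with equal medians or trimmed mean scaling, over ranges of 0.00511 to 0.0962 and 0.00458 to 0.151. The second difference was 0.16 with trimmed mean scaling. Mdh2 rose by 0.16 ± 0.047 in each of these comparisons (adjusted p = 0.0386 and 0.035). Its ampicillin call was lost in 14 of 21 settings, including every fit without 1 library except that without tributyrin replicate 3, over a range of 0.0129 to 0.13. The call between the tributyrin and vehicle groups was lost in 10 settings, including those without vehicle replicate 2 or 3, ampicillin replicate 2 or any tributyrin library, over a range of 0.0165 to 0.366, and the difference was 0.079 with trimmed mean scaling.

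**Figure D4:**
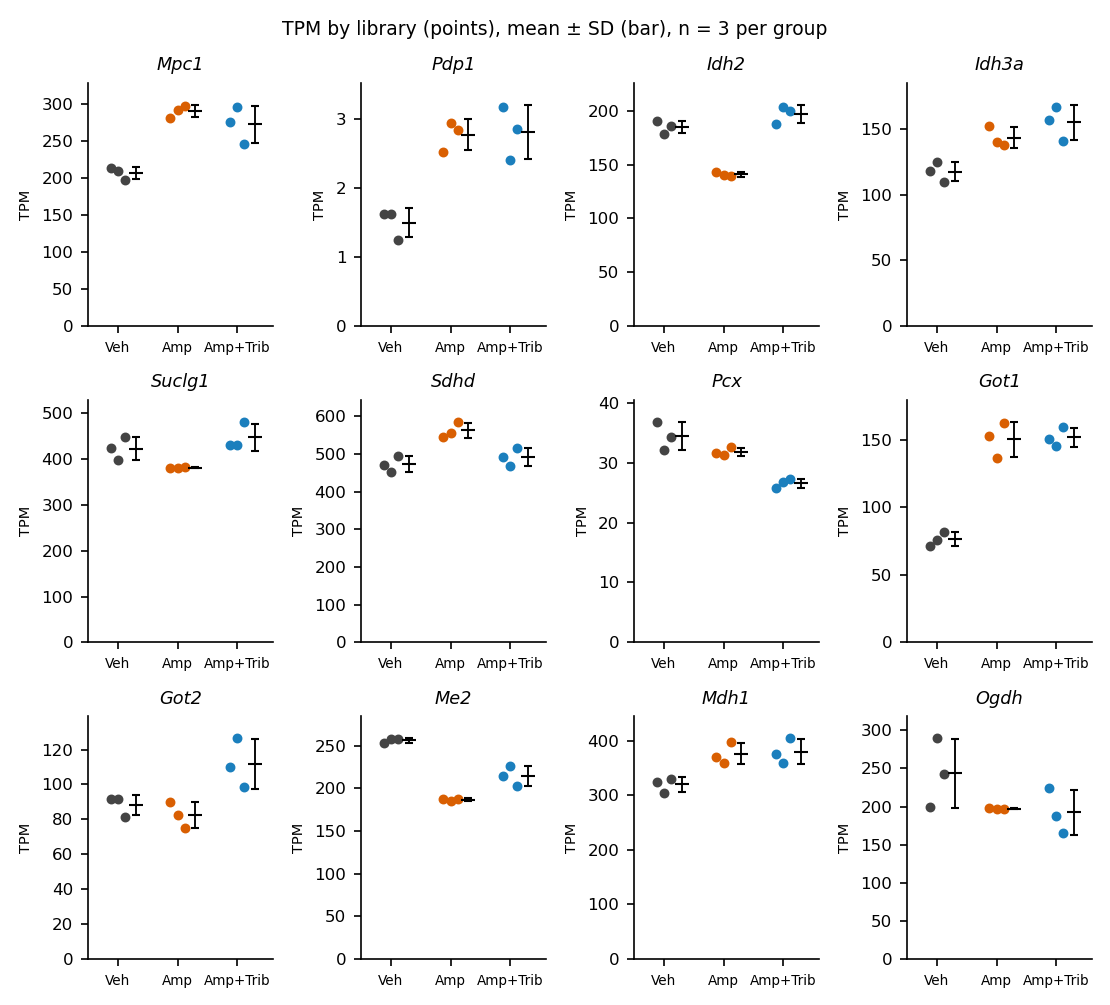
TPM of 12 members by library, as points, with the group mean and SD (n = 3). Mpc1, Pdp1, Idh3a and Got1 have their 3 lowest libraries in the vehicle group, Idh2, Suclg1 and Me2 have theirs in the ampicillin group, and Pcx has its 3 lowest libraries in the tributyrin group.

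The 5 genes of anaplerosis and nitrogen exchange held both the largest rise and the largest fall of the members. Got1, the cytosolic aspartate aminotransferase of the malate-aspartate shuttle, was at 71.6, 76.0 and 81.6 TPM in the vehicle, 153, 136 and 162 in the ampicillin and 151, 145 and 159 in the tributyrin libraries. The vehicle libraries were far below the rest, and the other groups overlapped. Got1 rose by 0.97 ± 0.076 with ampicillin (adjusted p = 8.85e-05), or 96.8% more TPM, and by 0.98 ± 0.076 between the tributyrin and vehicle groups (adjusted p = 0.000135). Both calls held in all 21 other settings. Tributyrin against mock gavage gave 0.017 ± 0.076 (adjusted p = 0.9).

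Got2, the mitochondrial aminotransferase of the same shuttle, was at 91.6, 91.6 and 81.4 TPM in the vehicle, 90.0, 82.7 and 74.9 in the ampicillin and 109.8, 127 and 98.4 in the tributyrin libraries. Its tributyrin libraries were the 3 highest, and the vehicle and ampicillin libraries overlapped. Got2 rose by 0.43 ± 0.10 with tributyrin (adjusted p = 0.0189) and by 0.33 ± 0.10 between the tributyrin and vehicle groups (adjusted p = 0.0418). The first call was lost without ampicillin replicate 2 or 3 or tributyrin replicate 2 (0.0563, 0.0609 and 0.0588, over a range from 0.00464). The second was lost in 11 of 21 settings, including those without any vehicle library, ampicillin replicate 2 or tributyrin replicate 1 or 2, over a range of 0.0113 to 0.127. Ampicillin against vehicle gave -0.097 ± 0.10.

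Me2, the mitochondrial malic enzyme that turns malate into pyruvate, was at 253, 258 and 258 TPM in the vehicle, 187, 185 and 188 in the ampicillin and 215, 226 and 202 in the tributyrin libraries. The 3 groups did not overlap, and the tributyrin libraries lay between the others. Me2 fell by 0.45 with ampicillin (SE 0.047, adjusted p = 0.000335), or 27.1% of TPM, and rose by 0.20 ± 0.047 with tributyrin (adjusted p = 0.0183). It remained lower in the tributyrin than in the vehicle group, at -0.26 ± 0.047 (adjusted p = 0.00535). The calls against vehicle held in all 21 other settings, and the tributyrin call was lost without ampicillin replicate 1 or 2 or tributyrin replicate 1 or 2 (0.0561, 0.0664, 0.0534 and 0.0625, over a range from 0.00309).

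Pcx, pyruvate carboxylase, which makes oxaloacetate from pyruvate, was at 36.9, 32.1 and 34.3 TPM in the vehicle, 31.7, 31.2 and 32.6 in the ampicillin and 25.7, 26.8 and 27.2 in the tributyrin libraries. The tributyrin libraries were the 3 lowest, and the vehicle and ampicillin libraries overlapped. Pcx fell by 0.25 with tributyrin (SE 0.056, adjusted p = 0.0144) and was lower in the tributyrin than in the vehicle group by a difference of -0.36 ± 0.056 (adjusted p = 0.00277), and both calls held in all 21 other settings. Glud1, glutamate dehydrogenase, which links glutamate to oxoglutarate, was at 174 ± 3.97, 165 ± 5.87 and 177 ± 5.60 TPM and was not called, although array weights called its difference of 0.10 ± 0.045 with tributyrin (0.0386, over a range to 0.519).

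Got1 (chr19:43499752-43524605, minus strand) and Pcx (chr19:4510472-4621752, plus strand) are shown with the 250 bases before a RefSeq start (chr19:43524606-43524855, minus strand, and chr19:4510222-4510471, plus strand, GRCm38.p6). They were chosen because their calls, one set against vehicle and the other with tributyrin, held in every setting. Sequences are 5′ to 3′, and capitals mark a match to a searched motif.
Got1: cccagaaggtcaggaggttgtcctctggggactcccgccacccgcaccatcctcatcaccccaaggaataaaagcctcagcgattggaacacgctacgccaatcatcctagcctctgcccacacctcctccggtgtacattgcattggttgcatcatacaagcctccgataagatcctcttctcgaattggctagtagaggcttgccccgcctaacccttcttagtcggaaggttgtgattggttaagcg
Pcx: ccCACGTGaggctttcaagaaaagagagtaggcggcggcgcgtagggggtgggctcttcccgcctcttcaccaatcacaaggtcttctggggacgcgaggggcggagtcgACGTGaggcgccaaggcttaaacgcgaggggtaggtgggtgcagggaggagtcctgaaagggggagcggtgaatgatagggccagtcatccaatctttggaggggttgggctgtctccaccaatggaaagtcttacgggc
The Pcx window held the E-box CACGTG and a separate ACGTG, while the Got1 window held none of the searched letters. Another Pcx start has its 250 bases at chr19:4594069-4594318 (plus strand, not printed), and these also held none of them.

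RefSeq promoter entries were matched for 27 of the 31 members, some with several starts, and searched on both strands from 250 bases before to 50 after the start. The nuclear respiratory factor motif NRF1 (TGCGCATGC) was found in 2 members, Glud1 and Ogdh, and in 1.52% of all 32851 promoters of the same length, or 1.72% of the 27025 genes when a gene counts once with any of its promoters, as the members do. The estrogen-related receptor element (TCAAGGTCA) was found in Sdhd, in 0.423% of promoters and in 0.466% of genes. CACGTG was found in Ogdh and Pcx (7.41% of the 27 members), in 7.15% of promoters and in 8.09% of genes. ACGTG, the core of the hypoxia response element, which lies within CACGTG, was found in 6 members (Idh3g, Mdh1, Ogdh, Pcx, Pdhb and Sdha; 22.2%), in 19.6% of promoters and in 21.8% of genes, so the members' share lay near the background. The YY1 motif (AAGATGGCG) was found in Idh3g, in 1.40% of promoters and in 1.64% of genes. A match is only a run of letters in this window. Of the genes with one, Sdhd, Mdh1, Sdha and Pcx were called in at least 1 comparison, and Glud1, Ogdh, Idh3g and Pdhb in none. Of all 31 members, 15 were called in at least 1, but 4 of the 31 had no promoter entry and were not searched. Idh2 and Got1 were searched, had no match and were called as well. Whether calls and matches go together was not tested.

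Plain ratios of TPM within a library do not depend on how libraries are scaled, and these are the ratios printed here. The 6 ratios were compared in the 3 comparisons, 18 tests in all, by a two-sided exact permutation test. Its smallest p with 3 against 3 libraries is 0.1. The tested values were log2 ratios after 1 TPM was added to each gene, which scaling can move where a gene is low, as Me1 is. Got2:Got1 was 1.16 ± 0.146 (SD, n = 3) in the vehicle, 0.553 ± 0.0791 in the ampicillin and 0.739 ± 0.127 in the tributyrin group, with no overlap between any groups. Idh2:Idh1 was 0.721 ± 0.0211, 0.548 ± 0.0103 and 0.702 ± 0.0601, with the ampicillin libraries apart and the others overlapping. Idh3b:Idh3a was 2.64 ± 0.138, 2.42 ± 0.0583 and 2.0 ± 0.0849, and the 3 groups did not overlap. The mitochondrial and cytosolic malic enzymes differed most in level: Me2:Me1 was 31.6 ± 3.84, 48.5 ± 2.04 and 54.0 ± 2.43, as Me1 was lower than Me2 in every library and fell further with ampicillin, from 8.23, 9.13 and 7.21 to 3.85, 3.98 and 3.72 TPM. Each of the ratios whose groups did not overlap had an exact p of 0.1 (Benjamini-Hochberg adjusted 0.164), so none passed 0.05, which this test cannot reach with 3 against 3 libraries. Mdh2:Mdh1 (1.79, 1.71 and 1.69) and Suclg2:Sucla2 (11.1, 10.6 and 10.2) overlapped in all 3 comparisons.

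**Figure D5:**
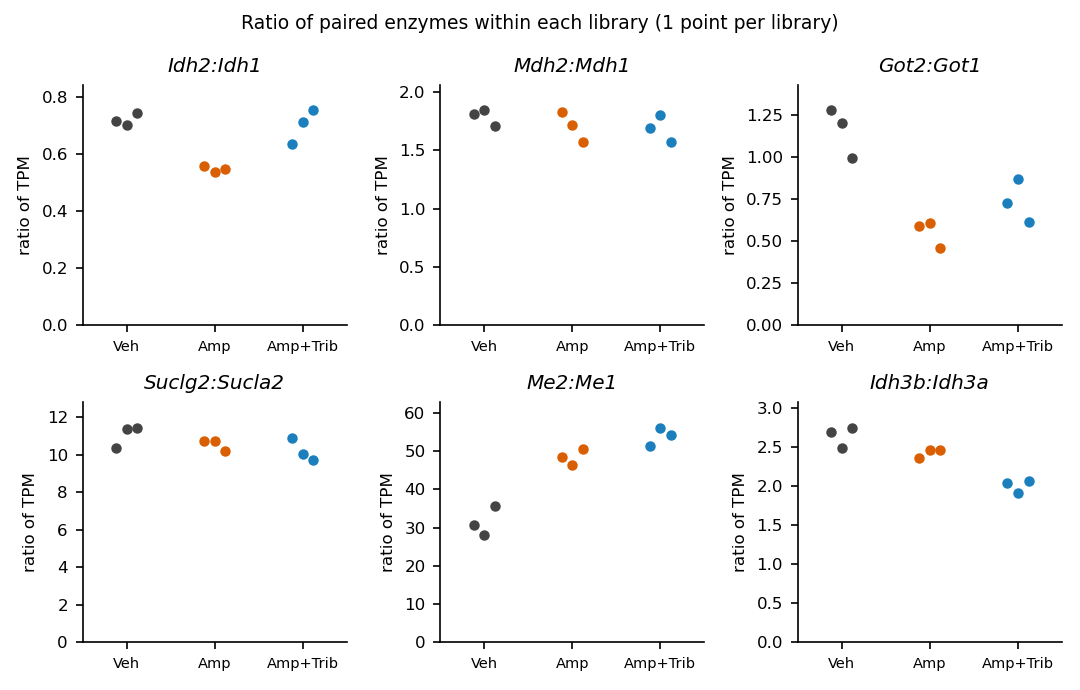
Ratio of TPM of 6 gene pairs within each library, with 1 point per library (n = 3 per group). Got2:Got1 lies at 0.997 to 1.28 in the vehicle and 0.462 to 0.607 in the ampicillin libraries, and Idh3b:Idh3a lies at 1.91 to 2.07 in the tributyrin libraries, below all others.

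Other genes of the pathway were taken from a list of which 46 were in the table and 39 passed the filter on low values. With ampicillin 6 rose and 11 fell, with tributyrin 8 rose and 5 fell, and between the tributyrin and vehicle groups 6 were higher and 10 lower. These are 43.6%, 33.3% and 41.0% of the 39, beside 21.3%, 23.2% and 28.3% of all genes tested. As this list too was chosen with earlier results of these data known, the higher shares are description only. Without ampicillin replicate 1 or 2 the first count was 11 in all, and without ampicillin replicates 1, 2 and 3 and tributyrin replicates 1 and 2 the second was 6, 7, 7, 8 and 5. The largest difference of the list was that of Gpt, cytosolic alanine aminotransferase, which links alanine to pyruvate. It was at 168, 159.7 and 188 TPM in the vehicle, 58.8, 59.9 and 62.1 in the ampicillin and 92.8, 85.3 and 91.7 in the tributyrin libraries, with no overlap between groups. Gpt fell by 1.49 with ampicillin (SE 0.065, adjusted p = 6.27e-06) and rose by 0.57 ± 0.065 with tributyrin (adjusted p = 0.00102). It stayed lower in the tributyrin than in the vehicle group, at -0.92 ± 0.065 (adjusted p = 9.72e-05).

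Ldha, lactate dehydrogenase A, which competes with the carrier for pyruvate, was at 1243, 1216 and 1212 TPM in the vehicle, 1996, 1851 and 2045 in the ampicillin and 1538, 1519.6 and 1535 in the tributyrin libraries. It rose by 0.68 ± 0.048 with ampicillin (adjusted p = 4.92e-05) and was lower with tributyrin, at -0.36 ± 0.048 (adjusted p = 0.00176). The groups did not overlap, and Ldha was still higher in the tributyrin than in the vehicle group, by 0.32 ± 0.048 (adjusted p = 0.00224).

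Cytosolic Me1 fell by 0.92 with ampicillin (SE 0.084, adjusted p = 0.00019), a difference that ran from -1.06 to -0.57 with the pseudocount and other settings, and was at 0.037 ± 0.084 with tributyrin. Of the phosphoenolpyruvate carboxykinases, which draw oxaloacetate out of the cycle, cytosolic Pck1 fell by 0.75 with ampicillin (SE 0.14, adjusted p = 0.00573), from 76.4, 80.3 and 82.3 to 40.1, 51.3 and 50.5 TPM. Pck1 rose by 0.48 ± 0.14 with tributyrin (adjusted p = 0.0378), to 81.8, 59.9 and 58.2 TPM. That call was lost in 11 of 21 settings, including every fit without 1 library except that without tributyrin replicate 3, over a range of 0.0224 to 0.116. Without tributyrin replicate 1, Pck1 was also lower in the tributyrin than in the vehicle group (0.0288, against 0.172 with all libraries and up to 0.394 in other settings). Mitochondrial Pck2 fell by 0.50 with ampicillin (SE 0.05, adjusted p = 0.000298). Me1 and Pck2 stayed lower in the tributyrin than in the vehicle group, with means of 3.98 against 8.19 TPM and 18.7 against 24.1 TPM. Both genes were called in that comparison in every setting.

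Other entry points to the cycle were also lower with ampicillin. Pcca, a subunit of propionyl-CoA carboxylase, which starts the route from propionate to succinyl-CoA, fell by 0.60 (SE 0.078, adjusted p = 0.00108), from 72.9, 65.3 and 77.8 to 48.0, 46.4 and 46.7 TPM. Acss1, the mitochondrial enzyme that activates acetate, fell by 0.47 (SE 0.074, adjusted p = 0.00272). Slc25a10, the dicarboxylate carrier, fell by 0.29 (SE 0.05, adjusted p = 0.00444), and Lipt2, which attaches the lipoate precursor that the dehydrogenase complexes need, fell by 0.51 (SE 0.088, adjusted p = 0.00428). None of these 4 ampicillin calls was lost in any of the 21 settings. With tributyrin, Lipt2 rose by 0.29 ± 0.088 (adjusted p = 0.0454), a call lost in 11 settings, including every fit without 1 library except that without tributyrin replicate 3, over a range of 0.00441 to 0.143. Pcca, Acss1 and Slc25a10 were not called with tributyrin, with differences of 0.16 ± 0.078, 0.20 ± 0.074 and -0.082 ± 0.05, although Acss1 was called in 3 of 21 settings, among them the fit without vehicle replicate 3 (0.0228, over a range to 0.211). Between the tributyrin and vehicle groups, Pcca and Slc25a10 were called lower in every setting. Their means were 52.9 against 72.0 TPM and 130 against 168 TPM.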

How the data were processed

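RNA of caecal epithelial cells was measured in 9 libraries, 3 per group, named and numbered by GEO's labels. Per the labels' protocols, epithelial cells were freed with DTT and EDTA and then Dispase, and libraries were made with NEBNext Ultra II kits. The submitters' processing notes name the build mm10 and the tools DESeq2 1.20.0 and Salmon 0.8.2, and the deposited TPM values per gene are one table made by the authors, and the sources used here do not state its gene annotation, strand setting or read depth. Quantification can split reads between a gene and near-identical copies or pseudogenes, so small differences of such members are uncertain.

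From these values limma 3.58.1 (R 4.3.3) was fitted on log2(TPM + 1) to the 12155 genes with a mean of at least 1 TPM over the 9 libraries, leaving out 11936, with 1 mean per group, a variance trend and 6 residual degrees of freedom. Tests were two-sided, with Benjamini-Hochberg adjustment over all 12155 genes, and the script was tested on simulated data. Gene symbols were matched to RefSeq for coordinates and promoters (GRCm38.p6, the build of mm10). The members and lists were chosen with earlier results of these data known. All members may be named; other pathway genes are named where a call reached a log2 difference of 0.5 in size or was the largest of its sublist, and Pdk4 in any case. A further gene that the rule names is not reported here. Alternatives were the pseudocount, the filter on low values, 4 scalings, array weights, a replicate block, no variance trend, a fit on the 2 groups compared, and leaving out each of the 9 libraries. Each of the 21 settings changed one choice. Because depth is unknown, no counting interval is given.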

Additional observations from a re-analysis of the deposited data

How the results depend on the processing

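No difference that was called in any setting changed sign, and for members the calls that held in all settings were 5 of 11 with ampicillin, 2 of 7 with tributyrin and 6 of 9 between the tributyrin and vehicle groups. Of the members not called, 4 of 20, 4 of 24 and 6 of 22 were called in some setting. With ampicillin, 11 members were called, against 7 with equal medians and 7 with trimmed mean scaling, and 5 to 13 when 1 library was left out. With tributyrin the count was 7, and 2 to 6 with 1 library left out. Between the tributyrin and vehicle groups it was 9, and 6 to 10. For the other pathway genes the counts were 17 (11 to 17), 13 (5 to 11) and 16 (11 to 17). Fits with 1 library fewer assume that the remaining libraries of that group vary like those of the other groups. The log2 difference of Me2:Me1 rested on the pseudocount, being 0.46 with ampicillin and 0.61 with a pseudocount of 0.1, and 0.62 and 0.76 between the tributyrin and vehicle groups. The cause of these moves was not tested.

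The labels do not say whether the replicate numbers pair the libraries. Over all genes tested, deviations from the group means correlated at -0.0498 to 0.108 for same-numbered libraries (9 pairs, 1 over 0.1). For the others (18 pairs) they correlated at -0.117 to 0.0748. Such low values cannot decide whether libraries were paired. Replicate 3 was the highest library of every group for Mpc2, Suclg1, Sdha, Sdhb, Sdhc, Sdhd, Mdh1 and Got1. It was the lowest of every group for Idh1, Idh3a, Idh3b, Idh3g and Got2, while other members, such as Mpc1, had no such order. A factor shared by same-numbered libraries was not tested. A fit with the replicate number as a block called 13 members with ampicillin, 7 with tributyrin and 11 between the tributyrin and vehicle groups. It kept all calls of members and added Idh3b (adjusted p = 0.0211) and Sdhc (0.026) with ampicillin, and Mpc2 (0.0178) and Idh1 (0.0497) between the tributyrin and vehicle groups. Among the other pathway genes named here it lost Pck1 with tributyrin (0.0665) and added Acss1 (0.044). Libraries carry no depth, so a difference that was not called may lie below what 3 libraries can show.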
